A study of Mus musculus with 8 samples.

Results

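Aminoacyl-tRNA synthetases are the enzymes that join each amino acid to its own tRNA. Probe sets of the array were assigned to this family where their only annotated gene symbol was 1 letter followed by ars, with or without a final 1 or 2, or was Eprs, Eprs1, Farsa, Farsb, Tarsl2 or Tars3. This gave 36 genes on 73 probe sets, among 18193 genes on the 34945 probe sets that carried a single symbol. Of the 36 genes, 20 encode cytosolic enzymes and 16 encode mitochondrial ones, whose symbols end in 2. Tarsl2 was counted as cytosolic despite its final 2, and Gars and Kars, each of which encodes both the cytosolic and the mitochondrial form of its enzyme, were also placed with the cytosolic genes.

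The arrays measured mRNA in V6.5 mouse embryonic stem cells (ESCs), a widely used pluripotent line. All cells carried a lentivirus that constitutively expressed an shRNA against mouse Wdr5 and held a doxycycline-inducible human WDR5 cassette, and were selected as GFP+. WDR5 is the WD-repeat adaptor of the MLL complexes, which methylate lysine 4 of histone H3, and F266A replaces a phenylalanine in its RNA-binding cleft by alanine. The 4 groups were F266A -dox (mutant transgene, no doxycycline), F266A +dox (mutant transgene, doxycycline at 2 µg per mL), WT -dox (wild-type transgene, no doxycycline) and WT +dox (wild-type transgene, the same dose of doxycycline). Each group had 2 arrays, given by the submitters as biological duplicates. No group lacked the shRNA, and no second, independently made line of either transgene is described, so the mutation cannot be told apart from other differences between the WT and F266A lines. No group without an inducible WDR5 transgene received doxycycline, so an effect of the drug cannot be told apart from that of the transgene. The growth medium of these cells held nonessential amino acids.

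Synthetases fall into class I and class II by the fold of their catalytic domain. Several cytosolic enzymes sit together in a multisynthetase complex, while the mitochondrial enzymes are made from nuclear genes and charge the tRNAs of the mitochondrial ribosome. Many cytosolic synthetase genes, together with amino acid transporters and biosynthetic enzymes, are known targets of ATF4, the transcription factor of the integrated stress response, which acts through C/EBP-ATF response elements in their promoters.

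Promoter windows of these genes were read in the RefSeq table for the mouse build GRCm38.p6, each running from 250 bases before to 50 bases after the annotated start. Windows were matched for 27 of the 36 genes. Those of Cars, Hars, Hars2, Lars, Nars, Pars2, Rars, Vars and Wars were not matched. The core of the C/EBP-ATF response element, searched as TGATGNAAN on both strands, occurred in 1299 of all 32851 windows of this length (3.95%). It occurred in the windows of 5 of 13 cytosolic genes, namely Aars, Gars, Iars, Tars and Yars, and of 0 of 14 mitochondrial genes. All 5 belong to the 12 cytosolic genes commonly listed as ATF4 targets, of which 8 had a window, and none of the 5 other cytosolic genes with a window held the motif. A match is a description of the letters and does not show a bound site. Shown here are the windows of Aars (chr8:111033592-111033891, plus strand), Iars (chr13:49681880-49682179, plus strand) and Yars (chr4:129189653-129189952, plus strand), which held the motif and were lower in F266A +dox than in WT +dox cells, of Gars (chr6:55037751-55038050, plus strand), which held it and was not lower, and of Sars (chr3:108445210-108445509, minus strand), which was lower without it. Each is written 5′ to 3′ on the strand of the gene, and capitals mark the 9 bases of each match.
Aars: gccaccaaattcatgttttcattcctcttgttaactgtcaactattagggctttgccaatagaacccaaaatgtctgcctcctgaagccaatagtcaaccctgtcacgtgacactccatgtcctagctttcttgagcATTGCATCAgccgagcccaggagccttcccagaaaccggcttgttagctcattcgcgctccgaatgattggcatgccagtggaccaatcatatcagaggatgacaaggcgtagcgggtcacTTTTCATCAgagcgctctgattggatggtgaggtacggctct
Iars: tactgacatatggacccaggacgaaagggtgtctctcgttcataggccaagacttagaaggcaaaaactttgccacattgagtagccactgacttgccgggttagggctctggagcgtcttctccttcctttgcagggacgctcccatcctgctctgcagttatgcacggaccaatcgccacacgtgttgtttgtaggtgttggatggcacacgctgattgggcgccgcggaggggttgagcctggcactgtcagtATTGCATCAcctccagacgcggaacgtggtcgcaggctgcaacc
Yars: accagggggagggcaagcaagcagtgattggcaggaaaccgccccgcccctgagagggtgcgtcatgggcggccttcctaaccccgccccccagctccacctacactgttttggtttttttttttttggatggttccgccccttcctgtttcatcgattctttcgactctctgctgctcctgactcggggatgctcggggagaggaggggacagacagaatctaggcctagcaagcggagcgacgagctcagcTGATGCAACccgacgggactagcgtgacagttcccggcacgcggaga
Gars: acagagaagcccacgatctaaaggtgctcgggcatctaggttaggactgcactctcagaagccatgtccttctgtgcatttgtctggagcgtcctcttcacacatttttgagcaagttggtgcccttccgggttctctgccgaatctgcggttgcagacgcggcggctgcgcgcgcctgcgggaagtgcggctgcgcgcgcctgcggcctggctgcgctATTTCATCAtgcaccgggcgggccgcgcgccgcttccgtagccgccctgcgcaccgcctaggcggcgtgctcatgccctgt
Sars: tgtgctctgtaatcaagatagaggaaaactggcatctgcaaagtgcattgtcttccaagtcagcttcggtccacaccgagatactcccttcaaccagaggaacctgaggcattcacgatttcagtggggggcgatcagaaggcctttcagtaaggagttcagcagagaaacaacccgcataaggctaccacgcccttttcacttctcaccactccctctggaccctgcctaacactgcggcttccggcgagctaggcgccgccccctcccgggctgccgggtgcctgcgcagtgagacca

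Counting the annotated start as position 0, the matches of Aars began at -113 and 8, that of Iars at 6, that of Yars at 3 and that of Gars at -31. Tars, which is not printed, held 1 match at -16. The Yars match read in the direction of the gene and the others lay on the opposite strand. The matches of Aars and Iars thus included the same 9 letters, ATTGCATCA.

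A probe set counted as expressed when it exceeded 50 on the linear scale (5.64 on the log2 scale) in at least 1 array. Of the 73 probe sets 62 did so, and they represented 35 of the 36 synthetase genes. Only Mars2, the mitochondrial methionyl enzyme, did not pass, with highest values of 4.62 and 3.54 on its probe sets. The 11 probe sets that did not pass belonged to Mars2, Eprs, Farsa, Qars, Cars2, Ears2, Iars2 and Nars2, and all of these genes but Mars2 kept at least 1 other. Closest to the minimum, probe sets of Iars2 and Ears2 reached 5.55 and 5.45 and were left out, while probe sets of Lars2 with highest values of 6.02 and 6.07 were kept. Each gene is given as the mean log2 expression of its passing probe sets. Levels of different genes are not compared, because each probe set responds to its own target differently.

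Duplicate arrays correlated at r of 0.9956 to 0.9974 over the 11940 genes that passed, and arrays of different groups at 0.9533 to 0.9896. The median SD between duplicates was 0.08 and the median standard error (SE) of a difference between groups was 0.08, both on the log2 scale. Mouse Wdr5, the target of the shRNA, read 9.31 and 9.27 in F266A -dox, 8.59 and 8.56 in F266A +dox, 9.45 and 9.35 in WT -dox and 8.35 and 8.32 in WT +dox arrays, and the withdrawn group was higher by 0.71 ± 0.07 in the F266A line and by 1.06 ± 0.07 in the WT line. The shRNA is described as constitutive in all groups, whether these probe sets also read the human transgene is not known, and the cause of the higher level without doxycycline was not tested. All 5 ESC markers were expressed. Of 10 fibroblast markers 9 had a probe set and 7 of those were below the minimum, Col1a1, Col3a1, Dcn and Postn among them. Col1a2 and Tagln passed, and each was higher in F266A -dox than in either WT group (limma, adjusted p under 0.05). For Col1a2 the difference was 0.63 from WT +dox and 0.80 from WT -dox. Its arrays ran from 5.58 to 5.88 over the WT groups, near the minimum, and from 5.99 to 6.71 over the F266A groups. Tagln, which smooth muscle and other mesenchymal cells also express, read 11.93 and 12.27 in F266A -dox, 11.80 and 11.66 in F266A +dox, 10.25 and 10.36 in WT -dox and 9.67 and 9.57 in WT +dox arrays. The 18S rRNA control (middle probe set) read 9.60 and 9.57 in F266A -dox, 10.61 and 10.35 in F266A +dox, 11.13 and 10.78 in WT -dox and 11.42 and 10.99 in WT +dox arrays. Fewer cells of a type and less RNA per cell cannot be told apart in such bulk samples, and the part of these differences in the results that follow was not tested.

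**Figure D1:**
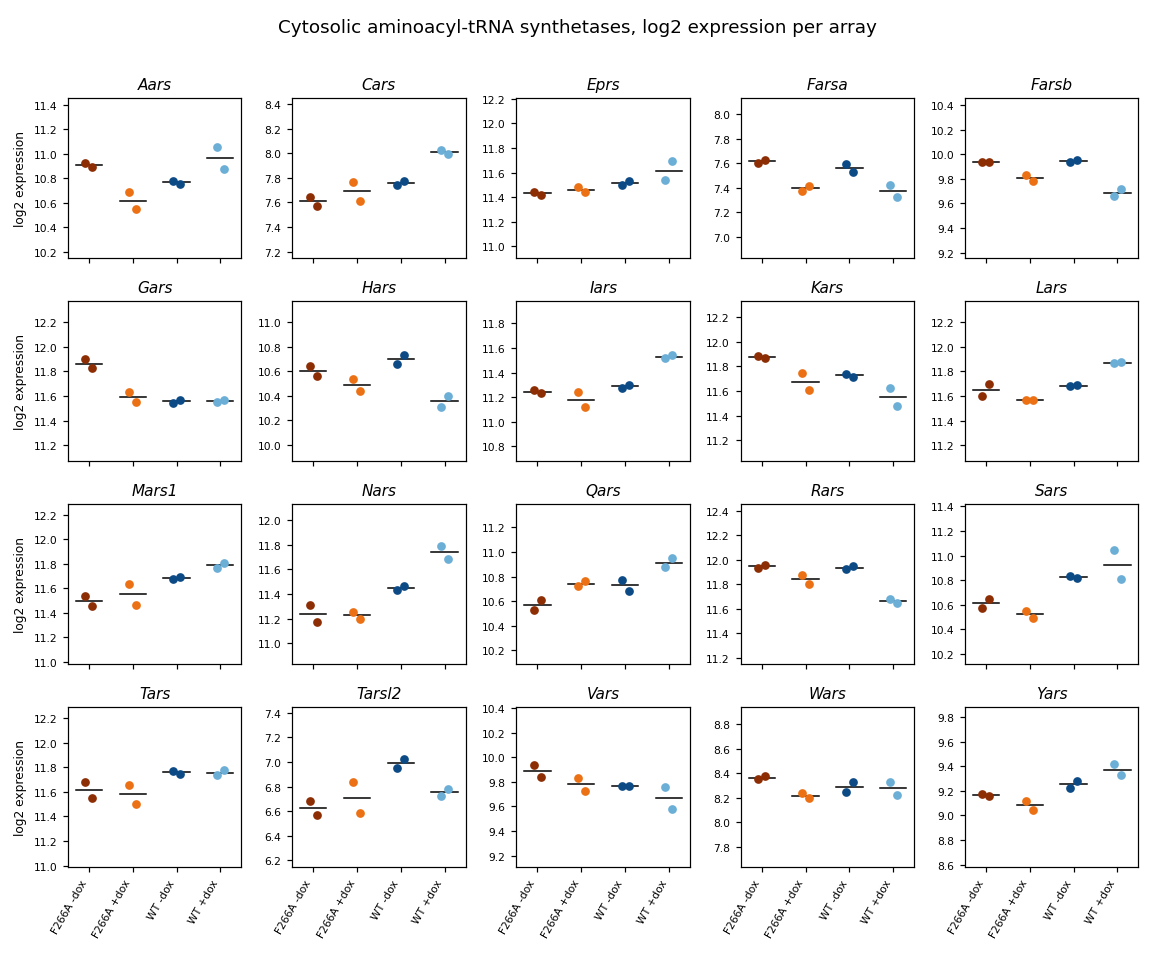
Expression (log2) of the 20 cytosolic synthetase genes in each of the 8 arrays, with 1 panel per gene, points for arrays and a line for the mean of each group (n = 2). Nars, Iars, Lars and Cars were highest in both WT +dox arrays, Hars, Rars, Farsb and Kars were lowest there on average, and Gars was highest in both F266A -dox arrays.

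The first comparison set induced mutant against induced wild-type WDR5 (F266A +dox against WT +dox). The paper reports equal transgene RNA in these lines but less F266A than wild-type protein. The form of WDR5 and its amount therefore cannot be told apart here. Of the 20 cytosolic genes, 8 were lower in F266A +dox cells and 0 were higher, by limma with Benjamini-Hochberg adjustment over all 11940 genes at a threshold of 0.05. Over all genes tested, 12.5% were called lower, 15.9% higher and 28.3% in either direction. In 3762 of all genes both F266A +dox arrays lay below both WT +dox arrays, and in 4075 both lay above. The 8 genes were Nars, Sars, Iars, Aars, Cars, Lars, Yars and Mars1, with differences of -0.51 to -0.24 on the log2 scale. All 8 were among the 12 cytosolic genes commonly listed as ATF4 targets, of which 11 had a negative difference with a median of -0.30. Of the 8 other cytosolic genes 0 were called by limma, and 1 in each direction had an unadjusted p under 0.05 (Rars higher, Qars lower). Of these 8, 6 had a positive difference, with a median of 0.12, while the median of all genes was 0.00. That list was drawn up with the fall of ATF4 target genes in these arrays already known, so its count is a description and not independent evidence of direction.

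Nars, the asparaginyl enzyme, changed most. It read 11.26 and 11.20 in F266A +dox arrays, against 11.79 and 11.68 in WT +dox arrays. Both mutant arrays lay below both wild-type arrays, and the difference was -0.51 ± 0.08 (SE, adjusted p = 0.00106, limma). Its mitochondrial counterpart Nars2 read 8.59 and 8.53 in F266A +dox arrays, against 8.40 and 8.57 in WT +dox arrays, which overlapped.

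Sars, the seryl enzyme, read 10.55 and 10.49 in F266A +dox arrays, against 11.04 and 10.81 in WT +dox arrays (difference -0.41 ± 0.08, adjusted p = 0.00649). The groups did not overlap, although the WT +dox duplicates stood further apart than the mutant ones. Sars2 read 7.19 and 7.12 in F266A +dox arrays, against 7.46 and 7.25 in WT +dox arrays, and was not called.

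Iars, the isoleucyl enzyme of the multisynthetase complex, read 11.24 and 11.12 in F266A +dox arrays, against 11.52 and 11.54 in WT +dox arrays (-0.35 ± 0.07, adjusted p = 0.00467). Lars, the leucyl enzyme of the same complex, read 11.57 and 11.56 in F266A +dox arrays, against 11.87 and 11.88 in WT +dox arrays. The lowest wild-type array thus exceeded the highest mutant array for both genes. Iars2 read 9.24 and 9.19 in F266A +dox arrays, against 9.21 and 9.47 in WT +dox arrays, and Lars2 read 6.65 and 6.70 in F266A +dox arrays, against 6.64 and 6.70 in WT +dox arrays. Neither mitochondrial partner was called, and the arrays of both overlapped between groups.

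Aars, the alanyl enzyme, read 10.69 and 10.55 in F266A +dox arrays, against 11.05 and 10.87 in WT +dox arrays (-0.34 ± 0.08, adjusted p = 0.0123). Aars2 read 7.87 and 7.89 in F266A +dox arrays, against 7.95 and 7.84 in WT +dox arrays, with overlap. The remaining cytosolic genes called lower were those for cysteine (Cars, -0.32 ± 0.07), tyrosine (Yars, -0.29 ± 0.07) and methionine (Mars1, -0.24 ± 0.08). Of the 7 measured members of the multisynthetase complex 3 were lower, as were 5 of the 13 cytosolic genes outside it, and the class I genes held 5 of the 8 calls and the class II genes 3.

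Among the 15 mitochondrial genes 1 was called, and it was higher. Yars2, the mitochondrial tyrosyl enzyme, read 8.78 and 8.77 in F266A +dox arrays, against 8.45 and 8.62 in WT +dox arrays (0.24 ± 0.08, adjusted p = 0.0432). Its cytosolic partner Yars read 9.12 and 9.04 in F266A +dox arrays, against 9.42 and 9.33 in WT +dox arrays, so that the genes for tyrosine differed in opposite directions. The median difference of the 15 mitochondrial genes was 0.05, with 9 above 0 and 6 below. Fars2, the mitochondrial phenylalanyl enzyme, was lower without a call (-0.45 ± 0.16, adjusted p = 0.0703, limma). It read 6.90 and 6.96 in F266A +dox arrays, against 7.36 and 7.40 in WT +dox arrays, which did not overlap.

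The calls of Nars, Sars, Iars and Lars held under all 18 gene-level refits. These refits do not include the 2-fold threshold or each probe set alone. Fars2, not called in the main fit, was called lower under 7 of the 18. Its difference ran from -0.48 to -0.25 over all of them. The calls of Aars, Cars and Yars ended without WT +dox replicate 1 (differences of -0.26, -0.30 and -0.24). They also ended without F266A +dox replicate 2 (-0.27, -0.24 and -0.25). The calls of Mars1 and Yars2 ended under 9 and 10 alternatives, the values nearest to 0 being -0.15 for Mars1 without F266A +dox replicate 2 and 0.15 for Yars2 without WT +dox replicate 1.

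**Figure D2:**
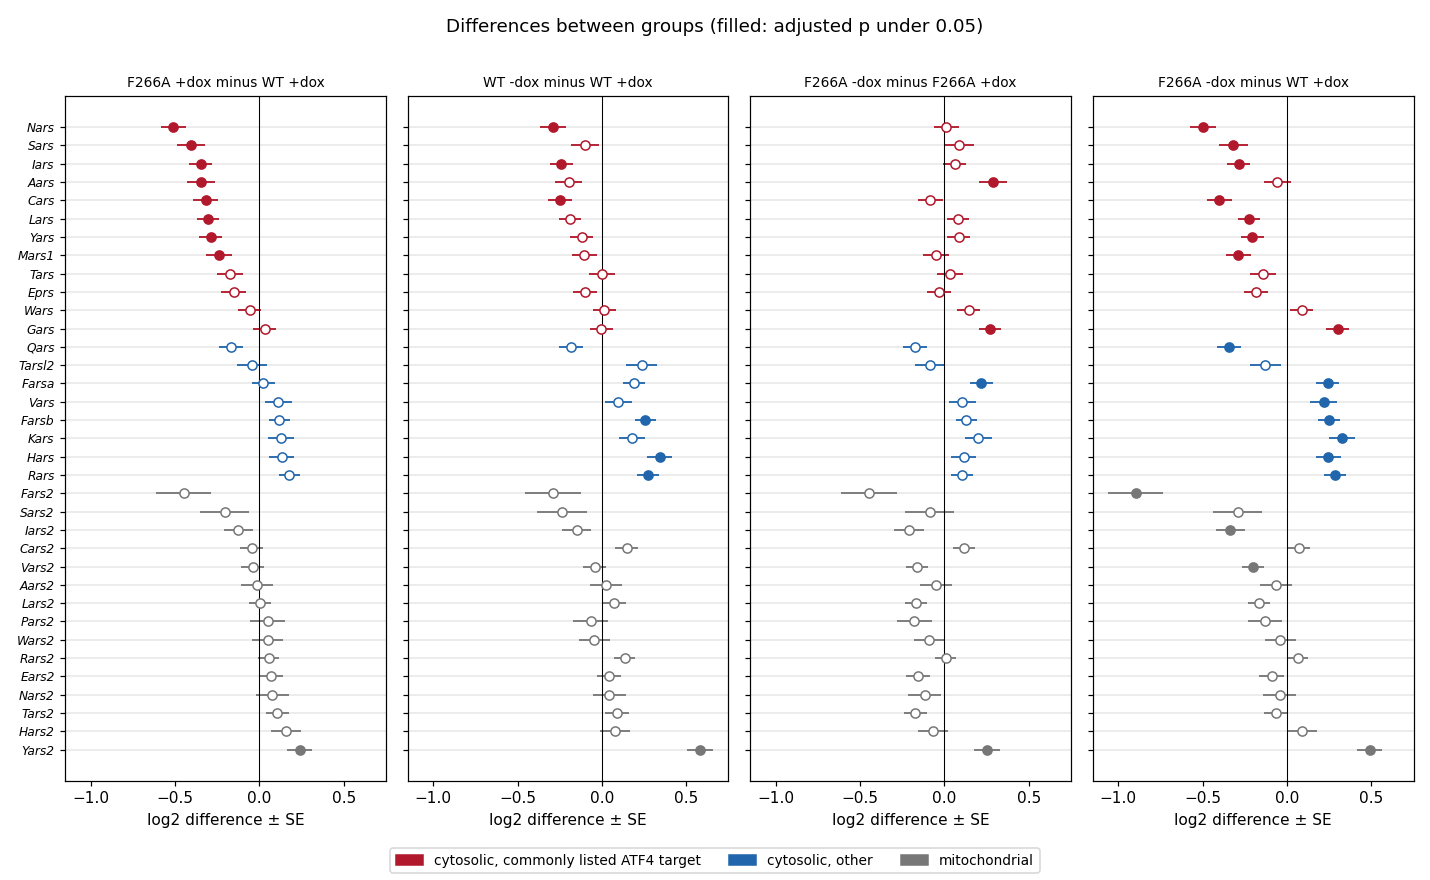
Difference in log2 expression (with SE bars, n = 2 arrays a group) of the 35 expressed synthetase genes in 4 comparisons, filled where the adjusted p from limma was under 0.05. The commonly listed ATF4 targets lie mostly left of 0 in the 3 comparisons that share the WT +dox arrays and mostly right of 0 for F266A withdrawal, and Yars2 is right of 0 in all 4.

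The second comparison set cells after withdrawal of wild-type WDR5 against cells in which it was induced (WT -dox against WT +dox). Of the 20 cytosolic genes 3 were lower and 3 higher, against 15.4% lower, 16.1% higher and 31.5% either way over all genes. In 3916 of all 11940 genes both WT -dox arrays lay below both WT +dox arrays, and in 4148 both lay above. Nars, Cars and Iars were lower in WT -dox cells and Hars, Rars and Farsb were higher. The same WT +dox arrays served in the first comparison, so the comparisons are not independent of each other.

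Nars read 11.43 and 11.47 in WT -dox arrays, against 11.79 and 11.68 in WT +dox arrays (-0.29 ± 0.08, adjusted p = 0.0168). Iars read 11.28 and 11.30 in WT -dox arrays, against 11.52 and 11.54 in WT +dox arrays (-0.24 ± 0.07, adjusted p = 0.0243). Cars read 7.74 and 7.77 in WT -dox arrays, against 8.02 and 7.99 in WT +dox arrays (-0.25 ± 0.07, adjusted p = 0.0285). In each of these 3 genes the duplicates lay close together and the groups did not overlap. The corresponding differences in F266A +dox cells, against the same WT +dox arrays, were -0.51 for Nars, -0.35 for Iars and -0.32 for Cars.

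Hars, the histidyl enzyme, read 10.66 and 10.73 in WT -dox arrays, against 10.31 and 10.40 in WT +dox arrays (0.34 ± 0.07, adjusted p = 0.00672). Rars, the arginyl enzyme of the complex, read 11.92 and 11.95 in WT -dox arrays, against 11.68 and 11.64 in WT +dox arrays (0.27 ± 0.06, adjusted p = 0.0109). Farsb, the beta subunit of phenylalanyl-tRNA synthetase, read 9.94 and 9.95 in WT -dox arrays, against 9.66 and 9.72 in WT +dox arrays (0.26 ± 0.06, adjusted p = 0.0135). On the brightest probe set of Farsb the difference was 0.12, and with a minimum of 100 it was 0.16, neither of them called. All 3 were higher without doxycycline in both arrays on the mean of their probe sets, and none of them is on the ATF4 list. The 8 unlisted cytosolic genes had a median difference of 0.21, with only Qars below 0, whereas the 12 listed ones had a median of -0.11.

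The largest difference of any synthetase between the WT groups was in Yars2. It read 9.08 and 9.15 in WT -dox arrays, against 8.45 and 8.62 in WT +dox arrays (0.58 ± 0.08, adjusted p = 0.000557). Its call held under all 18 gene-level refits. No other mitochondrial gene was called, among them the partners of Hars and Rars. Hars2 read 6.83 and 6.83 in WT -dox and 6.74 and 6.76 in WT +dox arrays, and Rars2 read 10.17 and 10.19 in WT -dox and 10.06 and 10.02 in WT +dox arrays.

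Each of the other 6 calls ended when 1 array was left out. The counts were 4 without either WT +dox array, 3 once WT -dox replicate 1 was left out and 1 once WT -dox replicate 2 was. Hars was lost only without WT -dox replicate 2 (0.31, adjusted p = 0.0551), and Rars without that array (0.26, adjusted p = 0.0717) or WT +dox replicate 2 (0.25, adjusted p = 0.0575).

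The third comparison set F266A -dox against F266A +dox cells, which differed in doxycycline as well as in induction of the mutant transgene. All 4 called synthetases were higher in F266A -dox cells, 3 of the 20 cytosolic genes and 1 of the 15 mitochondrial genes, against 8.94% called higher, 10.6% lower and 19.5% either way over all genes. They were Aars, Gars, Farsa and Yars2. The median difference was 0.09 for the cytosolic and -0.12 for the mitochondrial genes, 12 of the 15 mitochondrial genes being below 0 without a call, while the median of all genes was 0.00.

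Aars read 10.92 and 10.89 in F266A -dox arrays, against 10.69 and 10.55 in F266A +dox arrays (0.29 ± 0.08, adjusted p = 0.0365). Gars, the glycyl enzyme, read 11.90 and 11.82 in F266A -dox arrays, against 11.63 and 11.55 in F266A +dox arrays (0.27 ± 0.07, adjusted p = 0.0215). For both genes the F266A -dox arrays lay wholly above the F266A +dox arrays. Of all 11940 genes 3534 did so, and 3620 lay wholly below. Yars2 read 9.06 and 8.99 in F266A -dox arrays, against 8.78 and 8.77 in F266A +dox arrays (0.25 ± 0.08, adjusted p = 0.0461). Farsa, the alpha subunit of phenylalanyl-tRNA synthetase, read 7.60 and 7.63 in F266A -dox arrays, against 7.37 and 7.42 in F266A +dox arrays (0.22 ± 0.07, adjusted p = 0.0491). Yars did not share the difference of Yars2, with 9.17 and 9.16 in F266A -dox arrays, against 9.12 and 9.04 in F266A +dox arrays.

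None of these 4 calls held under all alternatives. All 4 ended without F266A +dox replicate 1, F266A +dox replicate 2 or F266A -dox replicate 1, where the difference of Gars was 0.31, 0.23 and 0.23. Without WT -dox replicate 1 or 2 or F266A -dox replicate 2, only that of Gars remained. Fars2, not called here, differed by -0.45 ± 0.16. It was called lower under 5 of the 18 gene-level refits, over which its difference ran from -0.72 to -0.17.

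**Figure D3:**
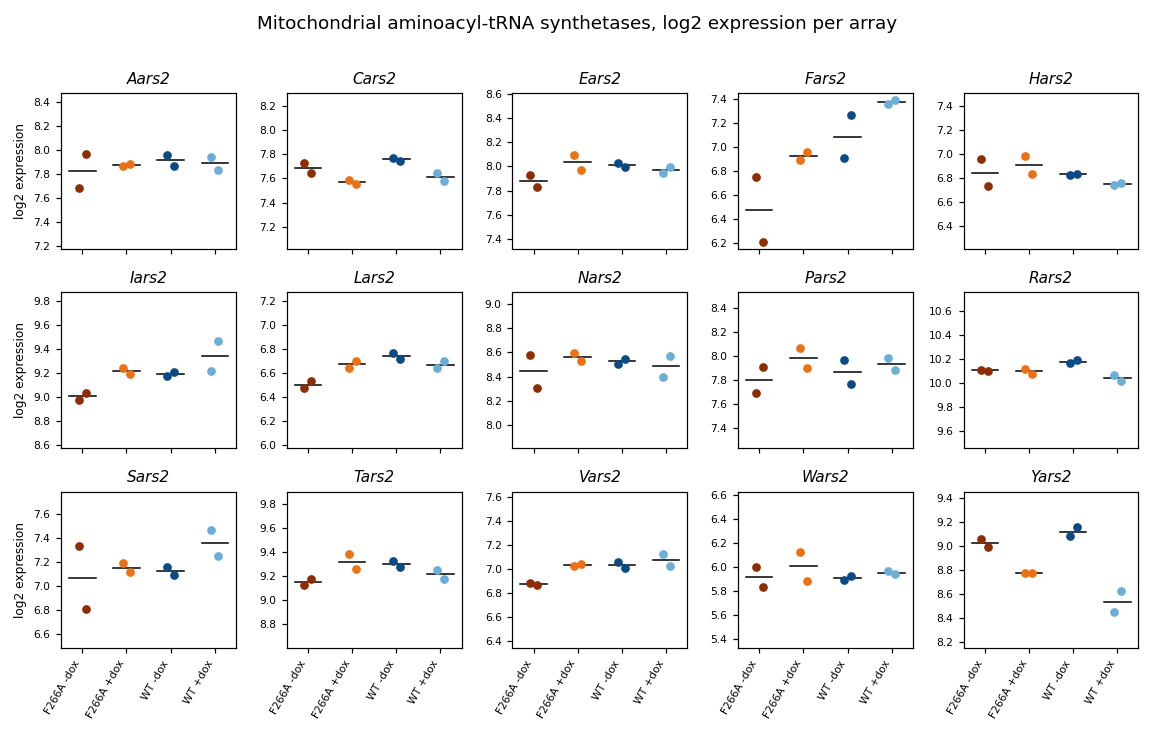
Expression (log2) of the 15 expressed mitochondrial synthetase genes in each of the 8 arrays, with 1 panel per gene, points for arrays and a line for the mean of each group (n = 2). Yars2 was lowest in both WT +dox arrays, Fars2 was lowest in both F266A -dox arrays with its duplicates far apart, and Sars2 duplicates were also far apart in F266A -dox.

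Where neither line received doxycycline (F266A -dox against WT -dox), 1 cytosolic gene was higher and 1 lower, and 2 mitochondrial genes were lower, against 14.0% called higher, 13.4% lower and 27.4% either way over all genes. In 4073 of all 11940 genes both F266A -dox arrays lay below both WT -dox arrays, and in 3762 both lay above. Gars was higher, at 11.90 and 11.82 in F266A -dox arrays, against 11.54 and 11.57 in WT -dox arrays (0.30 ± 0.07, adjusted p = 0.00873). Among the genes whose product is also mitochondrial, Kars was not called, with 11.88 and 11.87 in F266A -dox arrays, against 11.74 and 11.72 in WT -dox arrays. Tarsl2, a second cytosolic threonyl enzyme, read 6.68 and 6.57 in F266A -dox arrays, against 6.95 and 7.02 in WT -dox arrays (-0.36 ± 0.09, adjusted p = 0.0163). Tars, the main cytosolic threonyl enzyme, read 11.68 and 11.55 in F266A -dox and 11.77 and 11.74 in WT -dox arrays, and Tars2 read 9.13 and 9.17 in F266A -dox and 9.33 and 9.28 in WT -dox arrays. Neither was called.

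Fars2, the mitochondrial phenylalanyl enzyme, read 6.75 and 6.21 in F266A -dox arrays, against 6.91 and 7.27 in WT -dox arrays (-0.61 ± 0.16, adjusted p = 0.0232). The duplicates of both groups were far apart, yet the groups did not overlap. On the brighter probe set alone the difference was -0.49 (adjusted p = 0.0017). Lars2 read 6.48 and 6.54 in F266A -dox arrays, against 6.77 and 6.72 in WT -dox arrays (-0.24 ± 0.07), but differed by -0.13 on its brightest probe set alone or with a minimum of 100, and was then not called. Of the 15 mitochondrial genes 13 had a negative difference, with a median of -0.09, against -0.01 for all genes.

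The calls of Fars2 and Tarsl2 ended without WT -dox replicate 2 (values of -0.43 and -0.33) or without F266A -dox replicate 2 (-0.33 and -0.31), that of Gars without WT -dox replicate 1 (0.29, adjusted p = 0.0585) and that of Lars2 without any 1 of the 4 arrays. The number of called genes was 2 when WT -dox replicate 1 was left out, and 1 when either WT -dox replicate 2 or F266A -dox replicate 2 was.

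The groups furthest apart were cells with the mutant transgene withdrawn and cells with the wild-type transgene induced (F266A -dox against WT +dox), which differed in both transgene and doxycycline. Here the calls took in 15 of the 20 cytosolic genes (7 higher, 8 lower) and 4 of the 15 mitochondrial genes (1 higher, 3 lower). Over all genes 50.9% were called, 25.9% higher and 25.0% lower, so that the mitochondrial share was below that background and the cytosolic share above it.

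The direction split along the ATF4 list, which was drawn up with the fall of ATF4 target genes in these arrays known. Of the 12 listed genes 7 were lower (Nars, Cars, Sars, Mars1, Iars, Lars and Yars) and 1, Gars, was higher, whereas of the 8 unlisted cytosolic genes 6 were higher (Kars, Rars, Farsb, Hars, Farsa and Vars) and 1, Qars, was lower. The median was -0.21 for the listed and 0.24 for the unlisted genes. Aars, lower in F266A +dox cells, was not called here, with 10.92 and 10.89 in F266A -dox arrays, against 11.05 and 10.87 in WT +dox arrays.

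Nars read 11.31 and 11.17 in F266A -dox arrays, against 11.79 and 11.68 in WT +dox arrays (-0.50 ± 0.08, adjusted p = 0.000473). Cars read 7.65 and 7.57 in F266A -dox arrays, against 8.02 and 7.99 in WT +dox arrays (-0.40 ± 0.07, adjusted p = 0.00149). Qars, the glutaminyl enzyme of the complex, read 10.53 and 10.61 in F266A -dox arrays, against 10.88 and 10.95 in WT +dox arrays. In all 3 genes every F266A -dox array was below every WT +dox array. Of all 11940 genes 4398 did so, and 4530 lay wholly above. On the higher side, Kars, the lysyl enzyme, read 11.88 and 11.87 in F266A -dox arrays, against 11.62 and 11.48 in WT +dox arrays (0.33 ± 0.08, adjusted p = 0.00623), and Rars read 11.93 and 11.96 in F266A -dox and 11.68 and 11.64 in WT +dox arrays. For each of these genes both F266A -dox arrays lay above both WT +dox arrays.

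Fars2 read 6.75 and 6.21 in F266A -dox arrays, against 7.36 and 7.40 in WT +dox arrays (-0.90 ± 0.16, adjusted p = 0.00153). On the brighter of its probe sets alone it was -0.54 and called, while the dimmer one read 5.52 and 4.55 in the F266A -dox arrays, below the minimum of 5.64, so that its difference is not a measured size. Iars2 and Vars2 were lower by 0.34 and 0.20, and Yars2 was higher by 0.49 ± 0.08 (adjusted p = 0.000564). The difference of Vars2 came from its brighter probe set, at 7.41 and 7.51 in F266A -dox and 7.98 and 7.80 in WT +dox arrays. Its dimmer one overlapped, at 6.35 and 6.22 in F266A -dox and 6.27 and 6.26 in WT +dox arrays.

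In this comparison Cars, Fars2, Gars, Iars, Nars, Qars, Rars and Yars2 held their calls under all 18 gene-level refits. The difference of Farsb, 0.25 on the mean of its 4 probe sets, was 0.00 on the probe set with the highest mean. Those of Iars2 and Vars were -0.21 and 0.13 without WT +dox replicate 2, and that of Sars was -0.20 without WT +dox replicate 1. Vars lost its call under 12 of the 18 refits, Vars2 under 6, Yars under 5, Lars under 4 and Farsb under 3. Farsa, Hars, Mars1 and Sars lost theirs under 2 each, and Iars2 and Kars under 1.

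Induced mutant and withdrawn wild-type cells (F266A +dox against WT -dox) differed in 2 synthetases, both lower in F266A +dox arrays, against 4.41% called lower, 9.09% higher and 13.5% either way over all genes. Sars read 10.55 and 10.49 in F266A +dox arrays, against 10.83 and 10.82 in WT -dox arrays (-0.30 ± 0.08, adjusted p = 0.0432). Yars2 read 8.78 and 8.77 in F266A +dox arrays, against 9.08 and 9.15 in WT -dox arrays (-0.34 ± 0.08, adjusted p = 0.0171). The groups did not overlap for either gene, while of all 11940 genes 3626 lay wholly below and 3510 wholly above. Both calls ended when any 1 of these 4 arrays was left out.

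The interaction of line and withdrawal tested whether the change on doxycycline withdrawal differed between the lines. Aars alone was called among the 35 synthetases, against 5.15% of all genes, 2.21% with a positive and 2.94% with a negative value. Aars was 0.29 higher in F266A -dox than in F266A +dox and 0.20 lower in WT -dox than in WT +dox, which gave an interaction of 0.49 ± 0.12 (adjusted p = 0.0454). The value was positive for all 12 listed genes, from 0.03 to 0.49 with a median of 0.20, for 4 of the 8 unlisted cytosolic genes and for 1 of the 15 mitochondrial genes, the medians there being -0.06 and -0.13. The list was drawn up knowing the fall of ATF4 targets, and the same arrays enter this value, so the count is a description. Iars (0.30 ± 0.10, adjusted p = 0.109), Nars (0.30 ± 0.11), Gars (0.27 ± 0.09) and Lars (0.27 ± 0.09) had the next highest values and were not called. The Aars call was lost when any 1 array other than WT +dox replicate 2 was left out, with values of 0.40 to 0.56.

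No synthetase changed by 2-fold or more in any of these 7 contrasts. Over all genes 1.96% were called with at least such a change in F266A +dox against WT +dox, 1.36% in WT -dox against WT +dox, 0.402% in F266A -dox against F266A +dox, 1.81% in F266A -dox against WT -dox, 5.47% in F266A -dox against WT +dox, 0.687% in F266A +dox against WT -dox and 0.511% in the interaction.

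**Figure D4:**
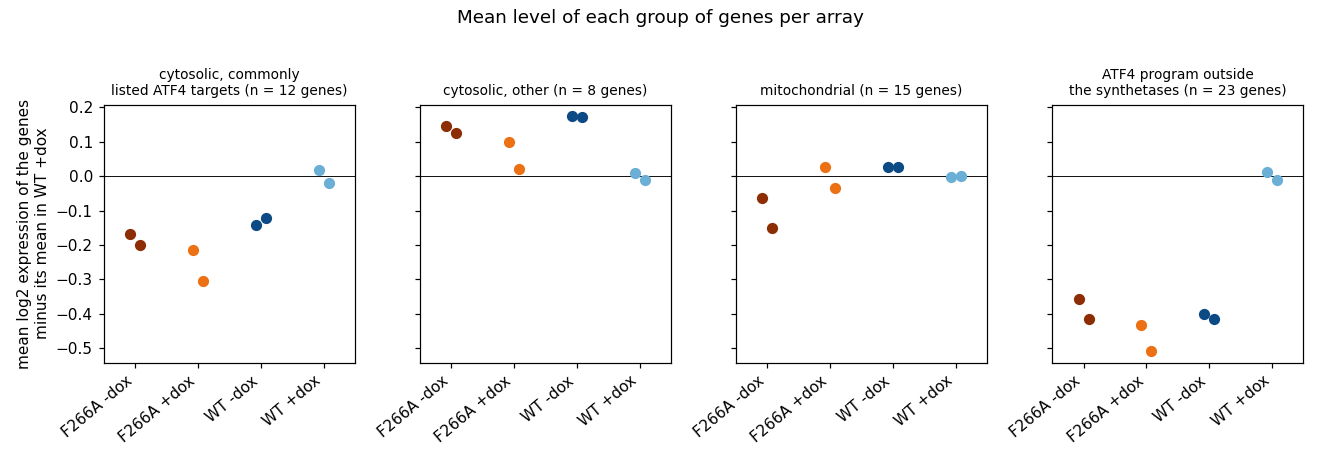
Mean log2 expression of 4 groups of genes in each array, minus the mean of the same group of genes over both WT +dox arrays, with 1 point per array. The listed cytosolic synthetases and the 23 other genes of the ATF4 program were highest in both WT +dox arrays, the other cytosolic synthetases were highest in both WT -dox arrays, and the mitochondrial synthetases were lowest in both F266A -dox arrays.

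Averaged over genes, the 12 listed synthetases stood at 10.62 and 10.58 in F266A -dox, 10.57 and 10.48 in F266A +dox, 10.64 and 10.66 in WT -dox and 10.80 and 10.76 in WT +dox arrays. Both WT +dox arrays were above the other 6. The 8 unlisted cytosolic genes stood at 9.89 and 9.87 in F266A -dox, 9.84 and 9.77 in F266A +dox, 9.92 and 9.92 in WT -dox and 9.76 and 9.73 in WT +dox arrays, the lowest values being those of WT +dox. The 15 mitochondrial genes stood at 7.82 and 7.73 in F266A -dox, 7.91 and 7.85 in F266A +dox, 7.91 and 7.91 in WT -dox and 7.88 and 7.88 in WT +dox arrays.

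Other genes of the ATF4 program were set beside the synthetases. Of the 23 measured, 16 were lower and 1 higher in F266A +dox than in WT +dox, and 16 lower and 1 higher in WT -dox than in WT +dox. This was 73.9% in each, against 28.3% and 31.5% of all genes. The list of these 23 was also chosen with earlier results of these data known. Both comparisons, and the interaction given below, use the same WT +dox arrays, so these counts are descriptions and not independent evidence. Atf4 itself read 10.59 and 10.56 in F266A +dox and 10.88 and 10.80 in WT -dox arrays, against 11.16 and 11.22 in WT +dox arrays, with differences of -0.62 ± 0.08 (adjusted p = 0.000476) and -0.34 ± 0.08 (adjusted p = 0.00968). Among the genes called lower were Nupr1, a small stress-induced nuclear protein, at -2.57 in F266A +dox and -2.32 in WT -dox, and Chac1, a glutathione-degrading enzyme, at -1.48 in F266A +dox and -0.85 in WT -dox. Asns, asparagine synthetase, which makes the amino acid that the Nars enzyme attaches, was at -0.52 in each. After withdrawal of the mutant, 5 of the 23 were higher and 2 lower in F266A -dox than in F266A +dox (30.4%, against 19.5% of all genes), among them Mthfd2, a mitochondrial one-carbon enzyme, 0.51 higher, and Asns, 0.28 lower. The interaction was called for 9 of the 23 (39.1%, against 5.15% of all genes), all positive, Atf4 among them at 0.57 ± 0.11 (adjusted p = 0.023). Of the 5 ESC markers (Pou5f1, Sox2, Nanog, Esrrb and Zfp42), Nanog and Esrrb were called lower in F266A +dox than in WT +dox and in WT -dox than in WT +dox, and Sox2, Nanog and Esrrb in F266A -dox than in F266A +dox. Esrrb differed by -0.41, -0.37 and -0.67 in these comparisons and Pou5f1, not called in any of them, by -0.04, 0.08 and -0.08. The part of these marker differences in the results was not tested.

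Of the amino acid transporters 13 of 16 passed the minimum. In F266A +dox against WT +dox 5 were lower and 2 higher, and in WT -dox against WT +dox likewise 5 and 2. This was 53.8% in each, against 28.3% and 31.5% of all genes. The transporter list was likewise chosen with earlier results of these data known, and both comparisons share the WT +dox arrays. Slc1a4, a carrier of neutral amino acids, read 6.70 and 6.60 in F266A +dox and 6.79 and 6.87 in WT -dox arrays, against 7.39 and 7.28 in WT +dox arrays. Slc7a7, a light chain for cationic and neutral amino acids, moved the other way, at 7.91 and 7.88 in F266A +dox and 8.24 and 8.18 in WT -dox arrays, against 7.30 and 7.09 in WT +dox arrays. In F266A -dox against F266A +dox 5 transporters were higher (38.5%, against 8.94% of all genes higher), Slc7a7 by 0.66 ± 0.08 (adjusted p = 0.00129), and 0 were lower by limma, also at an unadjusted p under 0.05.

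Of 13 scaffold proteins and other tRNA charging factors, 2 were higher and 1 lower in F266A +dox than in WT +dox (23.1%, against 28.3% of all genes), and 3 higher and 1 lower in WT -dox than in WT +dox (30.8%, against 31.5%). In F266A -dox against WT +dox 3 were higher and 4 lower (53.8%, against 50.9% of all genes), so these shares lay near those of all genes. Prorsd1, a relative of a bacterial domain that removes wrongly attached amino acids, was higher than in WT +dox by 0.49 in F266A +dox, 0.51 in WT -dox and 0.68 in F266A -dox. Aimp2, a scaffold of the multisynthetase complex, read 10.81 and 10.85 in F266A -dox arrays, against 10.61 and 10.52 in F266A +dox arrays (0.26 ± 0.07, adjusted p = 0.0311). Of 13 cytosolic translation factors 1 was higher and 2 lower in F266A +dox than in WT +dox (23.1%, against 28.3% of all genes), and 5 higher and 1 lower in WT -dox than in WT +dox (46.2%, against 31.5%), Eef1d, a subunit of the factor that reloads elongation factor eEF1A with GTP, by 0.40 ± 0.07. Of 9 mitochondrial translation factors 0 were called by limma in F266A +dox against WT +dox, where 1 had an unadjusted p under 0.05, and 2 were higher in WT -dox than in WT +dox (22.2%, against 31.5% of all genes in either direction).

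Of the 35 genes 19 were read by several passing probe sets, which allowed their differences to be set beside each other. In F266A +dox against WT +dox both probe sets of Nars (-0.39 and -0.63), Sars (-0.43 and -0.38), Iars (-0.36 and -0.34) and Aars (-0.41 and -0.28) were called lower when fitted singly. Cars rested on 1 of its probe sets, at -0.48, while the other, dim one was at -0.16 and not called. For Yars2 in WT -dox against WT +dox both were called, at 0.59 and 0.57. Farsa depended on a single probe set, which differed by 0.71 between F266A -dox and WT +dox arrays while the others stood at 0.03 and -0.01. For Fars2 the probe sets stood at -0.54 and -1.26 in that comparison, and the larger value came from a probe set whose mean level, 5.68, was close to the minimum. Another probe set, annotated to both Aars and Exosc6 and left out of the family, read 10.80 and 10.84 in F266A -dox, 10.67 and 10.48 in F266A +dox, 10.58 and 10.58 in WT -dox and 10.09 and 10.16 in WT +dox arrays. It was thus lowest in WT +dox arrays, opposite to the probe sets of Aars alone, and which of the genes it reads was not tested.

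**Figure D5:**
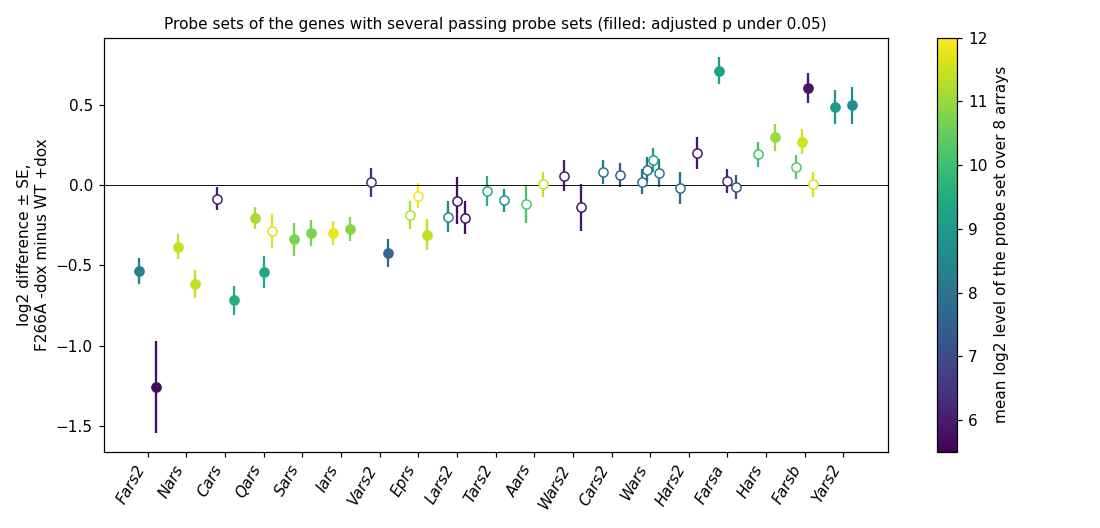
Difference in log2 expression (with SE bars) between F266A -dox and WT +dox for each passing probe set of the 19 genes read by several, coloured by mean level and filled where the adjusted p was under 0.05. Probe sets of Sars, Iars and Yars2 lie close together, whereas those of Farsa, Farsb, Cars, Vars2 and Fars2 spread widely.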

How the data were processed

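Total RNA was hybridised to 8 Affymetrix mouse arrays, whose labels gave the group and replicate number. The authors normalized them by robust multi-array average (RMA) with justRMA in R 2.11.1. The deposited log2 values were taken as they stood. The number of arrays and the spread between duplicates limit the precision. Of 45101 probe sets, 64 controls, 932 with several gene symbols and 9160 with none were left out. As in the study's methods, probe sets with a linear value over 50 in any array were kept and averaged by gene.

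The 8 arrays entered 1 model of 4 group means in limma 3.58.1 (R 4.3.3, with 4 residual and 5.32 prior degrees of freedom), two-sided, with Benjamini-Hochberg adjustment over 11940 genes per contrast and a threshold of 0.05. The significance analysis of microarrays named in the methods was not installed and was not run. The script was tested on simulated data.

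The members and all gene lists were chosen with earlier results of these data known, and every member may be named. Values are given array by array for called members with the largest differences and for their counterparts in the other compartment.

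Alternatives were a 2-fold threshold, array weights, each array left out, a replicate block, a variance prior that was trended and robust, a fit of only the groups compared, quantile normalization, median centring, each probe set alone, the brightest probe set of a gene, and no expression minimum or one of 100. A crossed block was added after the data had been seen.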

Additional observations from a re-analysis of the deposited data

Results flagged for a closer look

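Aars was the only synthetase whose change on doxycycline withdrawal differed between the lines by the test of the interaction. It was 10.92 and 10.89 in F266A -dox arrays, against 10.69 and 10.55 in F266A +dox arrays, and 10.78 and 10.75 in WT -dox arrays, against 11.05 and 10.87 in WT +dox arrays. The interaction was 0.49 ± 0.12 (SE, adjusted p = 0.0454 by limma over all genes), and its probe sets fitted singly gave 0.51 and 0.46, neither of them called. Over the alternatives the value ran from 0.40 to 0.57, and the call was lost under 9 of 17 gene-level refits. A probe set annotated to both Aars and Exosc6 was not part of these fits. It was higher, not lower, in WT -dox arrays (10.58 and 10.58) than in WT +dox arrays (10.09 and 10.16).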

How the results depend on the processing

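No call of a synthetase turned its direction under any gene-level refit. Single probe sets are outside that statement. Between F266A -dox and WT +dox a probe set of Farsa, a gene called higher, had a slightly negative difference. Of 139 counts of called synthetases under an alternative, 88 stayed within 1.5 times the reported count and 51 did not. With each array left out in turn, the 9 calls in F266A +dox against WT +dox became 4 to 10, the 7 in WT -dox against WT +dox 1 to 8, the 4 in F266A -dox against F266A +dox 0 to 3, the 4 in F266A -dox against WT -dox 1 to 5, the 19 in F266A -dox against WT +dox 13 to 18, the 2 in F266A +dox against WT -dox 0 to 2 and the 1 of the interaction 0 to 1. A 2-fold threshold left 0 in all 7 contrasts. A trended and robust variance prior gave 14 in F266A +dox against WT +dox, 11 in WT -dox against WT +dox, 8 in F266A -dox against WT -dox, 5 in F266A +dox against WT -dox and 5 for the interaction. In F266A -dox against F266A +dox the count was 1 with no minimum and in a fit of these groups only, and 2 with median centring and array weights. In F266A +dox against WT -dox it was 1 with no minimum, and 0 with the brightest probe set and with each probe set alone. The interaction count was 0 with no minimum, median centring and each probe set alone. The cause of these shifts was not tested.

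Duplicates sharing a number deviated together only weakly (r of 0.165 in the F266A and 0.129 in the WT groups, and -0.176 to -0.112 between lines), so the numbers were not taken to pair the arrays. With the replicate block 2 synthetases were called in F266A -dox against F266A +dox and 1 in F266A +dox against WT -dox, and the other counts stayed within 1.5 times. With a crossed replicate block, added after the data had been seen, 4 were called in F266A +dox against WT -dox. With 2 arrays per group, differences near the median SE of 0.08 were not detectable.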
